A study of Rattus norvegicus with 9 samples.

Results

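The comparison described here set brain tissue of rats given Panax notoginseng for middle cerebral artery occlusion (PN) against brain tissue of rats with the same occlusion and no named treatment (MCAO). It rests on 3 PN and 3 MCAO libraries, 6 of the 9 RNA sequencing libraries of the study, chosen by the treatment in their titles. Both groups carry the occlusion; their labels differ in the treatment and in the sample codes that end the titles. The other 3 libraries came from sham-operated rats and entered the model only to help estimate the spread between libraries. Libraries are called by their group and the code that ends their title: MCAO 3B, 6B and 7A, and PN 3A, 6A and 7A. Strain, age, brain region, hemisphere, the dose and route of the plant extract, and the times of reperfusion and sampling: none of these is stated in the sources used here. Separate animals for the libraries within a group are not stated either, so that p-values speak only of the spread among these libraries, part of which may be technical.

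Middle cerebral artery occlusion blocks the main artery of the lateral forebrain, usually with a filament that is later withdrawn, and is a standard rodent model of ischaemic stroke with reperfusion. The blocked territory includes much of the striatum and the overlying cortex. Panax notoginseng is a medicinal plant whose root holds triterpenoid saponins, among them notoginsenosides and ginsenosides, and preparations of these saponins are used in stroke care in China. The study's design text names a comparison of Panax notoginseng with a control group, which is read here as PN against MCAO, the question being which transcripts differ when the plant is given.

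Expression was given as FPKM, a fragment number scaled to transcript length and to the number of mapped fragments, for 32883 rat Ensembl gene IDs. Genes with at least 1 FPKM in 3 or more of the 6 libraries were tested, which left 14648. Of these, 12729 reached 1 FPKM in all 6 libraries and 525 in exactly 3, while 569 genes reached it in 2 and were left out. The table pairs no ID with a gene name, and 0 of the 32883 IDs could be paired with a symbol in the rat gene table used here. The genes are therefore described by level, direction and behaviour over libraries, and markers of cell types or brain regions could not be looked up. The labelled tissue could not be checked against its markers for the same reason. In such bulk tissue, fewer cells of a type and less RNA per cell cannot be told apart.

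In PN 2 genes were called higher than in MCAO, 0.0137% of those tested, and both were listed at 0 FPKM in every MCAO library. The test passed 0 lower genes (limma), and 678 lower genes had an unadjusted p under 0.05. ENSRNOG00000048608 was at 18.72 FPKM in PN 3A, 16.75 in PN 6A and 18.05 in PN 7A. Each of the 3 MCAO and 3 sham libraries listed it at 0. Its PN values lay close together, so the groups were separated by a step and not by a gradient. The gene passed the threshold of 0.05 (limma, adjusted p = 2.19e-05). ENSRNOG00000028243 was arranged alike but lower, with 2.997 FPKM in PN 3A, 3.35 in PN 6A, 2.27 in PN 7A and 0 in the 6 others (limma, adjusted p = 0.0430). A listed 0 can stand for a failed estimate, and for that reason no fold change is given for either gene. In the 6 libraries, 48 genes had a 0 at least once although their median was at least 5 FPKM. ENSRNOG00000048608 is itself counted there, and a 0 in some library is unlike a 0 in every MCAO and sham library. The count therefore cannot tell whether the 0 values of these genes are failed estimates. Both genes met the filter on low values only through the 3 PN libraries, and groups listed wholly at 0 add no spread to their test, so their p-values are weak support.

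The 2 calls differed in how many alternatives they passed. Most alternatives leave the values of 0 in MCAO and sham as they are, so passing again adds little support to either call. ENSRNOG00000048608 passed under 18 of the 19 alternatives that kept it and missed when the number in the sample code was fitted as a replicate block (limma, adjusted p = 0.129). ENSRNOG00000028243 passed under 5 of 18, with adjusted p from 0.00161 to 0.462. Omitting any 1 of the 6 libraries ended its call (limma, adjusted p from 0.0872 without MCAO 3B to 0.341 without PN 3A), and when the filter on low values was taken over all 9 libraries (adjusted p = 0.0545). When the 296 tested genes with a 0 in any of the 6 libraries were set aside, 0 genes passed (limma, lowest adjusted p = 0.178) and 1948 had an unadjusted p under 0.05.

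Presence in the whole of one group and absence from the other was rare. Over all IDs, 3 genes were at 1 FPKM or more in every PN library and at 0 in every MCAO library, and 0 genes showed the reverse. The third such gene had 3.02 FPKM in PN 3A, 3.93 in PN 6A and 4.08 in PN 7A, and also 3.02 FPKM in sham 5B (limma, adjusted p = 0.178). Counting any value above 0 as present, 71 genes were present in every PN library and at 0 in every MCAO library. The reverse held for 24 genes. A weaker form was at least 1 FPKM in all 3 libraries of one group and under 1 in all 3 of the other. Of 32883 IDs, 41 had it with PN as the higher group and 17 with MCAO, on the values as deposited. Values just to either side of 1 FPKM count here, and the split was not repeated under other scalings.

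**Figure D1:**
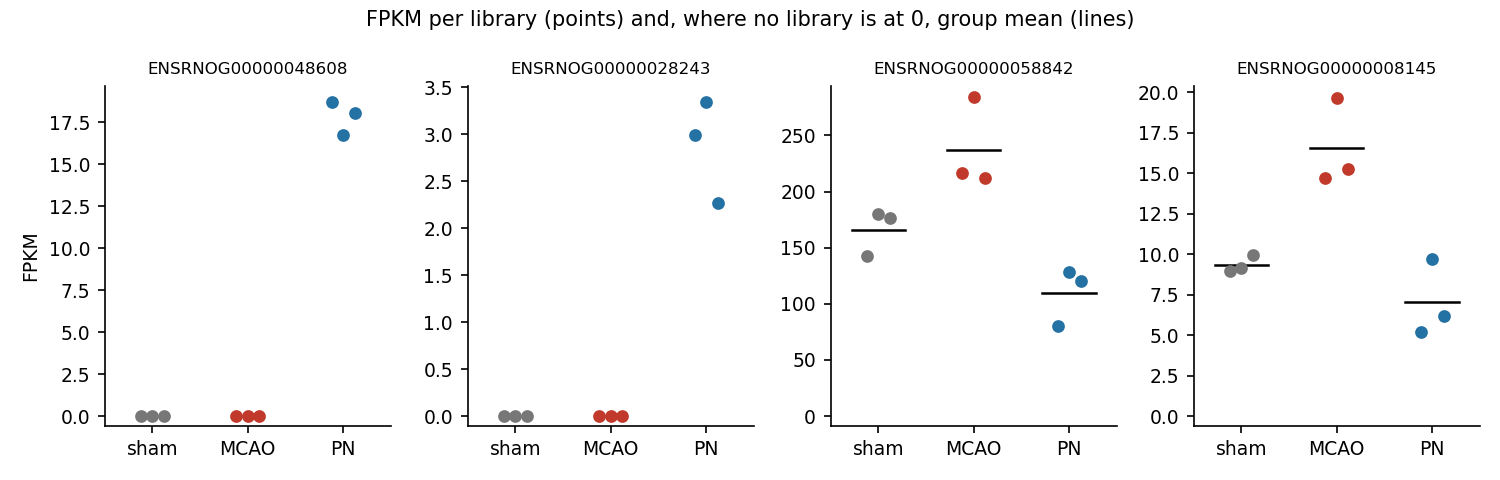
FPKM of 4 genes in each library (points, vertical axis in FPKM from 0) by group; lines are group means, drawn where no library is at 0. ENSRNOG00000048608 and ENSRNOG00000028243 have values in the 3 PN libraries and 0 elsewhere. ENSRNOG00000058842 and ENSRNOG00000008145 were chosen among genes with all PN points below all MCAO points.

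No gene was lower in PN at the adjusted threshold. As examples, the 2 lower genes with the smallest p are given, among those with no value of 0 and no overlap between the groups. They were chosen after their values were seen, and that all their PN values lie below all their MCAO values follows from the choice. ENSRNOG00000058842, an abundant transcript, was at 216, 284 and 212 FPKM in MCAO 3B, 6B and 7A against 80.6 FPKM in PN 3A, 128 in PN 6A and 120.2 in PN 7A. The lowest MCAO library thus stood well above the highest PN library. The means were 237 ± 40.3 FPKM in MCAO and 109.6 ± 25.4 FPKM in PN (SD, n = 3 each), with sham libraries between the groups at 142 to 180.0 FPKM. The difference on the log2(FPKM + 1) scale was -1.12 (standard error 0.22), lower in 3 of 3 PN libraries, which missed the threshold (limma, adjusted p = 0.178).

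ENSRNOG00000008145 behaved alike at a lower level. It was at 14.7, 19.7 and 15.3 FPKM in MCAO 3B, 6B and 7A against 5.23 FPKM in PN 3A, 9.74 in PN 6A and 6.19 in PN 7A. The sham libraries, at 8.98 to 9.97 FPKM, overlapped the PN range and not the MCAO range. Means of 16.6 ± 2.72 FPKM in MCAO and 7.05 ± 2.38 FPKM in PN (SD, n = 3 each) gave a log2 difference of -1.15 (standard error 0.23), which also missed it (limma, adjusted p = 0.178). Both genes passed under 1 of 20 alternatives, array weights, which let limma weight each library by its scatter (adjusted p = 0.0261 for ENSRNOG00000058842 and 0.0227 for ENSRNOG00000008145); their adjusted p reached 0.641 without MCAO 6B.

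Below the adjusted threshold, genes of all levels showed small differences between PN and MCAO that were not called. An unadjusted p under 0.05 was reached by 1973 genes, 13.5% of those tested, with 1295 higher (8.84%) and 678 lower (4.63%) in PN. In 20.5% of genes the groups had no overlap: PN was wholly above MCAO in 2002 (13.7%) and wholly below in 996 (6.80%). With no difference between groups, a share of 0.05 is awaited at that p and 0.1 without overlap. Genes vary together, so the shares found do not give a number of true differences. The split into genes above and below depended on scaling. It was 1544 above and 1253 below for equal sums, 1596 and 1316 for quantile normalization, and 1427 and 1461 for median-of-ratios scaling. As deposited, the median log2 difference was 0.51 in genes wholly above and -0.63 in genes wholly below, against 0.07 over all genes tested. The sign of the first 2 follows from how the genes were chosen. Such genes were of middling abundance, with a median of 14.6 FPKM for the higher and 13.2 FPKM for the lower, against 11.0 FPKM for all tested.

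Large differences were few. Among genes with no value of 0 and no overlap, 176 were at least 2-fold higher and 184 at least 2-fold lower in PN on the log2(FPKM + 1) scale, and at 4-fold 7 were higher and 5 lower. In 19 genes the lowest PN library had at least 2 times the FPKM of the highest MCAO library, and in 6 genes the reverse held. The median standard error was 0.25 log2 units. On the log2(FPKM + 1) scale, the 95% interval left out 4-fold changes for 95.2% of genes, 2-fold changes for 61.5% and 1.5-fold changes for 17.1%. That scale understates the change of low genes, and 4095 of those tested had a mean under 5 FPKM. For them, a change in FPKM of the size named may not be left out.

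The share of genes reaching an unadjusted p under 0.05 grew with expression level. It was 9.47% of the 4095 genes with a mean under 5 FPKM, 13.3% of the 5981 genes from 5 to 20 FPKM, 17.1% of the 3903 genes from 20 to 100 FPKM and 18.1% of the 669 genes at 100 FPKM or more. The median standard error in these classes was 0.31, 0.24, 0.22 and 0.24. The median log2 difference went from 0.02 in the lowest class to 0.20 in the highest, on the values as deposited. Among the 100 most abundant genes, all above 357 FPKM on average, 10 were higher and 4 lower in PN at an unadjusted p under 0.05. That share is close to the 13.5% of all genes and below the 18.1% of the class at 100 FPKM or more.

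**Figure D2:**
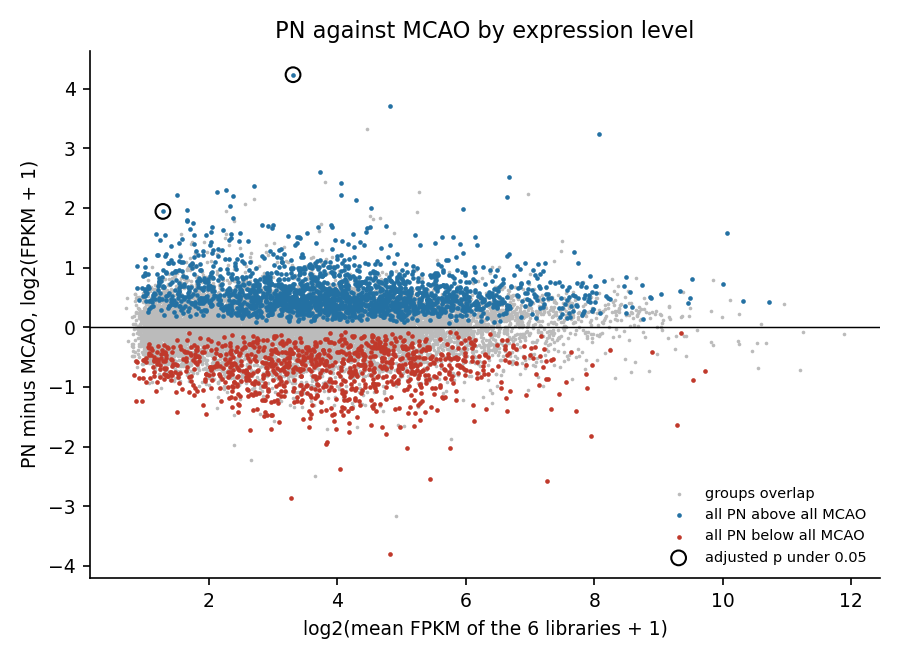
Difference between PN and MCAO (vertical axis, log2(FPKM + 1)) against mean level over the 6 libraries (horizontal axis, log2 scale) for 14648 genes; blue and red points are genes whose groups do not overlap, and circles mark the 2 genes past the adjusted threshold. Most coloured points lie within 1 unit of zero at every level.

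The genes with the strongest statistics were mostly higher in PN. The 25 genes with the smallest p were all higher in PN, and of the first 100, 92 were higher and 8 lower. Of the first 25, 3 are listed at 0 in some library. Fold differences of the other 22 on the log2(FPKM + 1) scale ran from 1.79 to 4.56, with a median of 2.61. The mean levels of these 22 genes ran from 2.42 to 98.5 FPKM. Each other setting ranked the genes anew. Of its own 25 genes with the smallest p, 24 were higher with equal sums of FPKM, 21 with median-of-ratios scaling and 22 with quantile normalization, and 20 or 21 of these 25 were among the first 25 as deposited. With 1 library left out, 19 to 25 of the newly ranked 25 were higher, but only 7 (without MCAO 7A) to 18 (without PN 3A) were among the first 25 of the full comparison. Of the newly ranked first 100, 89 were higher with equal sums, 83 with median-of-ratios scaling and 81 with quantile normalization. With 1 library left out, the number higher ran from 68 (without PN 7A) to 100 (without MCAO 3B).

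The direction over all genes at an unadjusted p under 0.05 did depend on scaling. As deposited, 65.6% of them were higher in PN. The share was 52.8% with equal sums, 53.9% with quantile normalization and 48.3% with median-of-ratios scaling. The sums of FPKM were 401871, 393610 and 387893 in MCAO 3B, 6B and 7A and 445693, 404651 and 404624 in PN 3A, 6A and 7A. All 3 PN sums lay above all 3 MCAO sums (exact permutation p = 0.1, two-sided, the smallest that 3 against 3 can give). PN 6A and PN 7A lay only just above MCAO 3B. The other library measures compared overlapped between the groups, among them the median FPKM of tested genes (exact permutation p = 0.2). Among 2-fold genes without overlap, those listed at 0 included, 199 were higher and 191 lower as deposited, against 153 higher and 246 lower with median-of-ratios scaling.

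PN 3A carried most of the large differences, above all the lower ones. Of the 184 genes at least 2-fold lower in PN, PN 3A had the lowest value of the 3 PN libraries in 179, or 97.3%. It had the highest value in 137 of the 176 genes at least 2-fold higher, or 77.8%. When PN 3A was left out, 33 of the 184 lower genes and 113 of the 176 higher genes were still 2-fold apart. Leaving out PN 6A kept 180 lower and 169 higher genes, and leaving out PN 7A kept 179 and 157. On the MCAO side, MCAO 6B was the lowest of its group in 114 of the 176 higher genes, and without it 110 of them and 149 of the lower genes were still 2-fold apart.

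PN 3A also stood apart within its own group. It was the PN library farthest from the group median in 48.2% of genes, against 32.2% for PN 6A and 19.5% for PN 7A, while the 3 MCAO libraries ranged from 31.2% to 37.4%. The deposited column of PN 3A has a name that starts unlike those of the other PN columns, and no label explains the start. Without PN 3A the 1973 genes at an unadjusted p under 0.05 became 1027, with 783 higher and 244 lower. Without MCAO 6B they became 1050, with 731 higher and 319 lower. Without PN 6A there were 2668, and leaving out any of the other 3 libraries gave 1671 to 1863. The relative depth of the libraries, read from the steps of the lowest FPKM values, was 1.08 in PN 3A, within the range of the 6 libraries, from 1 in MCAO 3B to 1.33 in PN 7A. The depth of PN 3A rests on 11 of 200 ratios of low values. Its share of FPKM in the 50 most abundant genes, 13.6%, was also within the range, from 11.8% in PN 7A to 13.9% in MCAO 3B. On other measures PN 3A lay outside the range of the other libraries. It had 786 genes at 100 FPKM or more, against 630 in MCAO 3B to 679 in PN 7A. Its sum of FPKM, 445693, was the highest, followed by 404651 in PN 6A. Whether these bear on its place in the group was not tested.

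Comparing libraries singly showed that some PN and MCAO libraries were closer than libraries of 1 group. PN 6A and MCAO 7A differed at least 2-fold in 609 genes, 442 higher and 167 lower in PN 6A, which is fewer than in any pair of libraries within PN or MCAO (1018 to 2503 genes). Their correlation across genes was the highest of the 15 pairs (Pearson r of log2(FPKM + 1) = 0.961, across genes, which are not independent replicates). The lowest was that of PN 3A and MCAO 7A (r = 0.866), with 1525 genes at least 2-fold higher and 1761 lower in PN 3A. The mean r was 0.940 within MCAO, 0.923 within PN and 0.920 between the groups. Within PN, PN 3A and PN 6A differed at least 2-fold in 2503 genes, the most of the 6 pairs within groups. The median standard deviation of a gene was 0.30 log2 units in PN and 0.26 in MCAO.

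**Figure D3:**
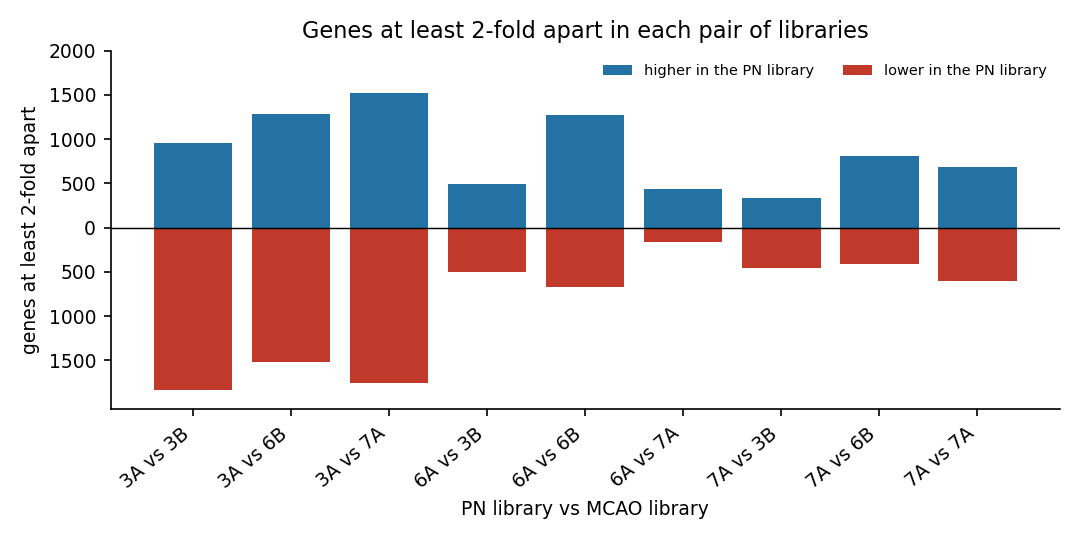
Number of genes at least 2-fold apart on the log2(FPKM + 1) scale in each of the 9 pairs of a PN and an MCAO library (horizontal axis, PN code first); blue bars upward are genes higher in the PN library, red bars downward genes lower in it. The 3 pairs with PN 3A have the most genes and more lower than higher ones, and PN 6A with MCAO 7A has the fewest.

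The sample codes could mark further structure. The letter that ends the code is A in all 3 PN libraries and in 1 MCAO library, so that a comparison within the letter A holds 1 MCAO library and one within B holds no PN library. With the letter as a covariate, 1207 genes were at an unadjusted p under 0.05 (824 higher and 383 lower in PN), and ENSRNOG00000048608 alone passed the adjusted threshold. What the letters mark is not given in the sources used here, and their part in the result was not tested. Array weights called 396 genes, 331 higher and 65 lower in PN (limma, adjusted threshold of 0.05), with a weight of 6.41 on PN 7A and 0.340 on PN 3A. Leaving out PN 7A brought the weighted fit to 1 gene.

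**Figure D4:**
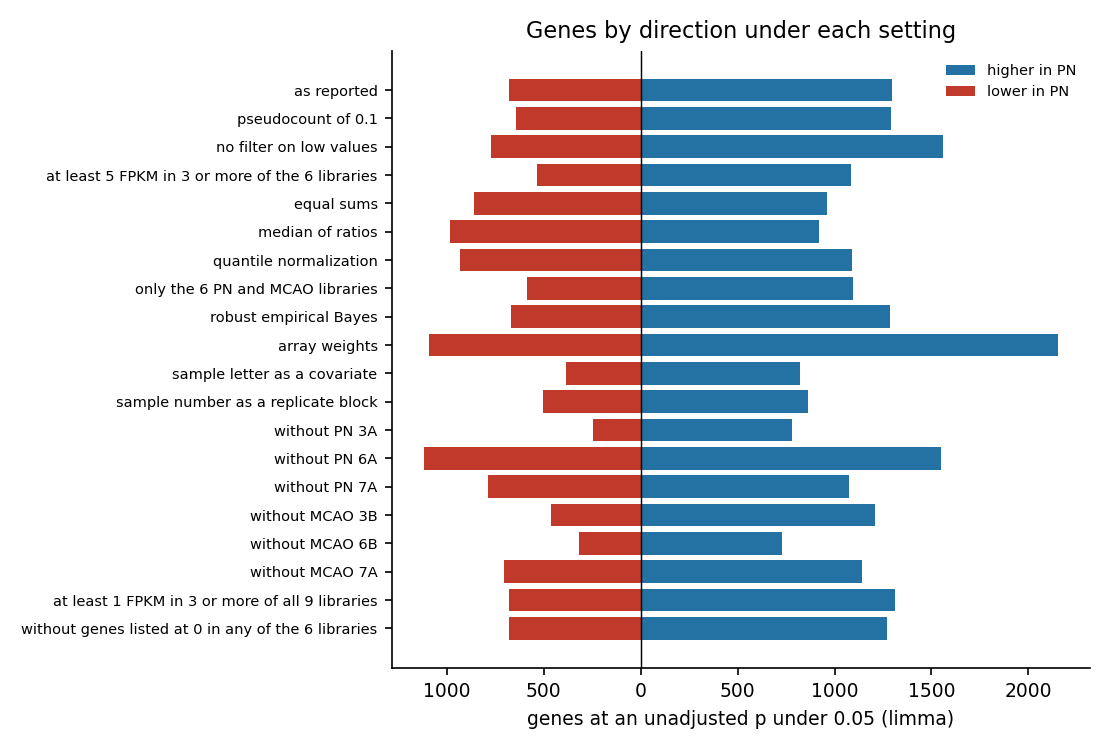
Genes at an unadjusted p under 0.05 (limma) that were higher (blue, to the right) or lower (red, to the left) in PN under each setting. Counts range from 1027 genes without PN 3A to 3246 with array weights, and median-of-ratios scaling is the setting shown with more lower than higher genes.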

How the data were processed

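Gene levels were deposited as FPKM, per the file headers, in a table with 1 column per library. StringTie 1.3.1, HISAT2, Bowtie2 2.2.8 and fastp 0.18.0 are listed in the submitters' processing notes, which give them no role; build, annotation and strandedness are not given in the sources. Per the labels' protocols, Trizol RNA was enriched on oligo(dT) beads and sequenced on an Illumina HiSeq. FPKM keeps no read numbers, so the depth of each library in reads is unknown and no counting interval is given. Columns were matched to titles by their ending code; 7A ends a title in both groups, and these columns were placed by the first part of their names, shared with placed columns.

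Values were used as deposited, as log2(FPKM + 1), which understates the change of low genes. Group means of all 9 libraries were fitted with limma 3.58.1 in R 4.3.3 (empirical Bayes with a trend), two-sided, with Benjamini-Hochberg adjustment over 14648 genes. A fold of at least 2 means a difference of at least 1 on that scale. Descriptions and the exact permutation test used Python 3.11.15 and scipy 1.17.1. The pipeline was tested on simulated data. Relative depth was taken from the ratio at which values under 0.15 FPKM pile up between libraries.

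Genes were named if they passed the adjusted threshold; with no gene names, the IDs printed were kept to 2 in each direction. The gene lists written for this tissue and the rest of the naming rule could not be applied. The libraries compared and the lists were chosen with earlier results of these data known. Alternatives were 17 planned settings and 3 chosen after seeing the data.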

Additional observations from a re-analysis of the deposited data

How the results depend on the processing

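The number of genes past the adjusted threshold was 2 as reported and small under every alternative except array weights (396). It was 1 with a pseudocount of 0.1, a minimum of 5 FPKM, quantile normalization, a fit of only the 6 libraries and the sample letter as a covariate. Of the alternatives chosen after seeing the data, a filter over all 9 libraries gave 1, array weights without PN 7A gave 1, and leaving out genes listed at 0 gave 0, which removes both called genes by construction. With 1 library left out the count was 1 to 4. Genes at an unadjusted p under 0.05 numbered 3246 with array weights, 1228 with array weights without PN 7A, 1207 with the sample letter, and 1027 (without PN 3A) to 2668 (without PN 6A) with 1 library left out. Genes without overlap numbered 3684 to 5428 with 1 library left out, where 5 libraries overlap less often by construction. Where not stated, the cause was not tested. With the code number fitted as a replicate block, 0 genes passed (limma, lowest adjusted p = 0.129; an unadjusted p under 0.05 in 1364). The numbers 3, 6 and 7 occur in both groups. Deviations of same-numbered libraries from their group means correlated at 0.06, -0.41 and -0.16 across genes. Those of unlike-numbered libraries correlated from -0.31 (MCAO 7A with PN 3A) to 0.45 (MCAO 7A with PN 6A). Such correlations across genes cannot show whether the numbers mark pairs, and the main fit did not use them as pairs. No direction of a named gene reversed. Each named gene had no overlap between the groups, so leaving out a library could not reverse it, and this adds no support. The gene list alternatives were not run, since no ID had a gene name. Limits set by depth could not be derived, as reads are unknown.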
